A study of Mus musculus with 26 samples.

Results

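The Krüppel-like factors (KLFs) were followed here as a set of 10 genes, Klf2, Klf3, Klf4, Klf5, Klf6, Klf7, Klf9, Klf10, Klf11 and Klf13, through heat, oxidative and osmotic stress of NIH3T3, a mouse fibroblast line established from embryos. The members' rows were found by gene symbol. Each of the 10 had a row among the 20430 genes of the RNA tables and among the 19941 genes of the ribosome footprint tables. Each also passed the filter on low counts in every fit, so that none was left untested among the 12747 genes of the heat fit, the 13256 genes of the H2O2 and KCl fit, the 10545 genes of the footprint fit and the 10480 genes of the fit of footprints per RNA.

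KLFs are transcription factors that bind GC-rich boxes and CACCC boxes in promoters through zinc fingers at their carboxyl end, which the family shares with the SP factors. Their amino-terminal parts differ and divide the family into a group that mostly activates transcription by way of histone acetyltransferases (Klf2, Klf4, Klf5, Klf6 and Klf7), a group that represses through the corepressor CtBP (Klf3, Klf8 and Klf12) and a group that represses through the SIN3 corepressors (Klf9, Klf10, Klf11, Klf13 and Klf16). Several members are immediate-early genes in fibroblasts, with short-lived RNA and protein, and are known as regulators of proliferation and quiescence.

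Polyadenylated RNA was sequenced in 8 groups of 2 replicates, and ribosome-protected mRNA fragments (footprints), which report on the mRNA being translated, in 5 groups of 2. Heat was given at 44 °C for 2 h or at 42 °C for 8 h and had a control of its own. H2O2, an oxidant, and KCl, which raises the osmolarity of the medium, were each applied for 2 h or 7 h and shared a control, so every H2O2 and KCl comparison against that control rests on the same 2 control libraries of a kind. Footprints were analysed for the H2O2 and KCl groups and their control. All groups are the same cell line without a genetic change named in the labels, and no source used here gives a dose of H2O2 or KCl. Nothing in the labels says that replicates came from separate cultures, so the p-values measure the spread between these samples, which may be technical. In such bulk samples, less RNA per cell and fewer cells that express a gene cannot be told apart.

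RNA libraries held 24441877 to 45244430 counts and footprint libraries 1460751 to 5168537, the lowest being replicate 1 of H2O2 for 2 h. Replicates of a group had a correlation across genes of 0.997 to 0.999 in RNA and of 0.956 to 0.978 in footprints. As a check of the cell type, the summed TPM (transcripts per 1000000, a level divided by transcript length) of 8 fibroblast markers ran from 3704 to 10260 over the 16 RNA libraries. The sum was 8.78 to 19.55 for 6 epithelial markers, 0.44 to 3.66 for 5 endothelial markers and 7.74 to 44.81 for 6 immune markers. Among the immune markers, the leukocyte gene Ptprc was at most 0.05 TPM, while Adgre1 and Cd3e were at 0 in each library. The macrophage receptor gene Csf1r went from 0.02 to 16.07 TPM. Cd68, a lysosomal gene that fibroblasts also express, ran from 5.32 to 44.68 TPM, and the part of Csf1r- or Cd68-expressing cells in the results was not tested.

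In unstressed cells Klf6 was the most abundant member and Klf11 the least. In the control of H2O2 and KCl, RNA levels per length were 86.3 ± 1.82 TPM (SD, n = 2) for Klf6, 56.4 ± 3.64 for Klf3, 42.5 ± 0.446 for Klf10, 39.0 ± 6.89 for Klf5, 31.1 ± 3.35 for Klf9, 27.5 ± 2.51 for Klf4, 19.7 ± 2.29 for Klf13, 18.3 ± 0.453 for Klf2, 8.76 ± 0.0141 for Klf7 and 4.76 ± 0.601 for Klf11. The replicates of Klf10 and Klf5 overlapped, as did those of Klf9 and Klf4 and of Klf13 and Klf2, so the order within these pairs is not resolved. In the heat control, too, Klf6 was first, at 88.9 ± 3.85 TPM (SD, n = 2), and Klf11 last, at 7.79 ± 0.7.

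The order in footprints was another. Klf6 led with 281 ± 39.8 TPM of footprints (SD, n = 2), followed by Klf5 with 114 ± 11.1, whereas Klf4 had 4.15 ± 0.933 and Klf11 2.53 ± 1.09. Divided by its RNA level, Klf6 had 3.25 footprint TPM per RNA TPM and Klf5 had 2.92, above 97% and 96.4% of the genes tested in both kinds of library. Klf13 had 1.61, above 90% of them. Klf4, with 0.151, was above only 3.86% of these genes, and Klf2, with 0.352, above 19.8%. The median of all these genes was 0.638. The deposited TPM values of RNA and footprints appear to divide by different lengths of a gene, since CPM and TPM of a member stood in another proportion in each kind, so the quotient and its place among genes depend on those lengths. On CPM, undivided by length, it was 5.19 for Klf5, 1.58 for Klf6, 0.468 for Klf2, 0.464 for Klf13 and 0.160 for Klf4. This quotient still depends on the length that each kind of read can cover, so neither quotient is free of length. By CPM the order of Klf5 and Klf6 is turned round, while Klf4 is the lowest of the 10 members by both quotients. Klf13 comes level with Klf2, and their order by CPM is not resolved. Control footprints of Klf2 were at 2.94 and 10.7 CPM and those of Klf13 at 20.8 and 32.7.

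**Figure D1:**
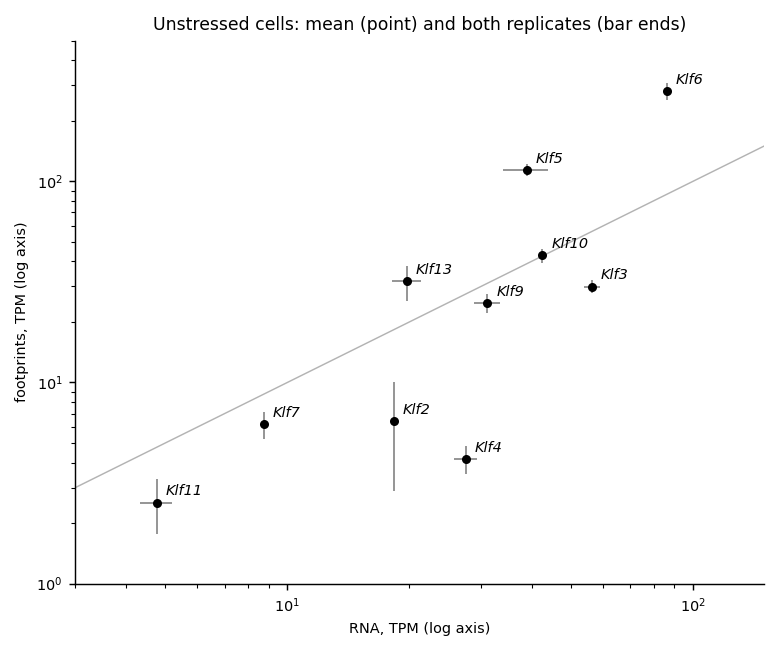
RNA level (x axis, TPM, log axis) against footprint level (y axis, TPM, log axis) of the 10 members in unstressed cells, the control of H2O2 and KCl. Points are means, bars end at the 2 replicates and the line marks equal values. Klf6, Klf5 and Klf13 lie above it, at 281, 114 and 31.8 TPM of footprints. Klf10 lies close to it, and the others lie below it, Klf4 the farthest, at 4.15.

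Because the members differ so much in their response to KCl, the 250 bases before the annotated start were set side by side for the members that rose most (Klf7 and Klf9), the member that fell most (Klf2) and Klf4, whose RNA pattern was most like that of Klf9. RefSeq promoter windows of GRCm38.p6, the build named mm10 in the submitters' processing notes, matched 8 of the 10 members by symbol. Klf5 and Klf10 had no matched window. All 4 are printed 5′ to 3′ on the strand of the gene, and capitals mark motif matches: GC boxes in Klf7, Klf2 and Klf4, an AP-1 site in Klf9 and, in Klf2 from base -118 to -109 before the start, a MEF2 box. The Klf7 stretch is chr1:64121390-64121639 (minus strand), which lies inside the longest span annotated for the gene, Klf2 is chr8:72318812-72319061 (plus strand), Klf9 is chr19:23140976-23141225 (plus strand) and Klf4 is chr4:55532476-55532725 (minus strand).
Klf7: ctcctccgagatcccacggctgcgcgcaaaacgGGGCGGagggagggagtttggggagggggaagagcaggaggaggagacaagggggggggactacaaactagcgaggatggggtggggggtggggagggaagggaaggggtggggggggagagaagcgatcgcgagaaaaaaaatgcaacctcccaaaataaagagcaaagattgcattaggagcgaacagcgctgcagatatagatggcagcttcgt
Klf2: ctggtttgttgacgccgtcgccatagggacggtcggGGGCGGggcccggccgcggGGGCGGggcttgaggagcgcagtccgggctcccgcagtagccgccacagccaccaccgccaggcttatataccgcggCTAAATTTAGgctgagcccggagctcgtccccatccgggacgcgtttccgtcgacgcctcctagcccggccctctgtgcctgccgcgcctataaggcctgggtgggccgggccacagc
Klf9: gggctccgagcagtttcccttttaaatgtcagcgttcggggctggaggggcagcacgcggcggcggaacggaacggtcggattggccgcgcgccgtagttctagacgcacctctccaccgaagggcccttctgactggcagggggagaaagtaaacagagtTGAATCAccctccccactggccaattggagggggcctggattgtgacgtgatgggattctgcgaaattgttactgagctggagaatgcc
Klf4: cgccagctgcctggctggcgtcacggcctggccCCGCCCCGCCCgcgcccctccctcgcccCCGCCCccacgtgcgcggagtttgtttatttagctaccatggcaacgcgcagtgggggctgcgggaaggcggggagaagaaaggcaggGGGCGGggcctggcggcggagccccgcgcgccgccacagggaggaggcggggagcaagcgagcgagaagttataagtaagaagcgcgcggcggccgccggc

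Motifs were searched on both strands in windows of 300 bases, from 250 before to 50 after each start, and the same search was run over 32851 windows of the annotation. The GC box GGGCGG was in 7 of the 8 member windows, all but Klf9, and in 35.7% of all windows. Member windows had a GC content of 58.3% to 77.7% against a median of 52.7% over all windows, so this share is not one for windows of like composition. The AP-1 site TGANTCA was in 1 member window, that of Klf9 (7.81% of all windows), and the MEF2 box in 1, that of Klf2 (3.19%). The antioxidant response element TGACNNNGC, whose letters can overlap an AP-1 site, was in the windows of Klf3 and Klf6 (12.4%). No member window held a cAMP response element (TGACGTCA, 1.79% of all windows), a CArG box (1.63%) or a heat shock element in the strict form of GAA, 2 free bases, TTC, 2 free bases and GAA (0.603%). These matches describe the letters only.

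Called changes of the members were mostly rises at 2 h of H2O2 and KCl and all falls at 44 °C, while at 7 h the number called in either direction was near the share over all genes. A change is called here where edgeR's quasi-likelihood F test gave a Benjamini-Hochberg adjusted p under 0.05 over all genes of the fit. The members were chosen with earlier results of these data known, so the shares over all genes are description and no test of the set. After 2 h at 44 °C, 9 of the 10 members fell and none rose, where 35.7% of all genes tested were called lower and 35.4% higher. The median log2 fold change of the members was -0.46, against 0.00 for all genes. After 8 h at 42 °C, 5 rose and 5 fell (31.7% of all genes higher, 31.9% lower). After 2 h of H2O2, 7 rose and 2 fell (27.3% higher, 26.5% lower), and 6 of these calls were at least 2-fold, which 13.3% of all genes reached. After 2 h of KCl, 8 rose and 2 fell (27.2% higher, 27% lower), and 8 calls were at least 2-fold (12.7% of all genes). The median log2 fold change of the members was 0.78 after 2 h of H2O2 and 1.14 after 2 h of KCl, both set against the same control libraries, while all genes were centred on no change.

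By 7 h as many members were called higher as lower with either agent. After 7 h of H2O2, 3 rose, 3 fell and 4 were not called (39.4% of all genes higher, 31.1% lower), and 0 members had a called change of at least 2-fold, against 23.3% of all genes. After 7 h of KCl, 4 rose, 4 fell and 2 were not called (37.2% higher, 31.6% lower), with 3 calls of at least 2-fold (18.4%). In heat, 1 member at 44 °C and 2 members at 42 °C reached a called 2-fold change, against 11% and 7.92% of all genes. Medians of the members lay near those of all genes after 7 h of H2O2 (-0.04 against 0.08), after KCl for 7 h (0.05 against 0.04) and after 42 °C (0.07 against -0.01).

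**Figure D2:**
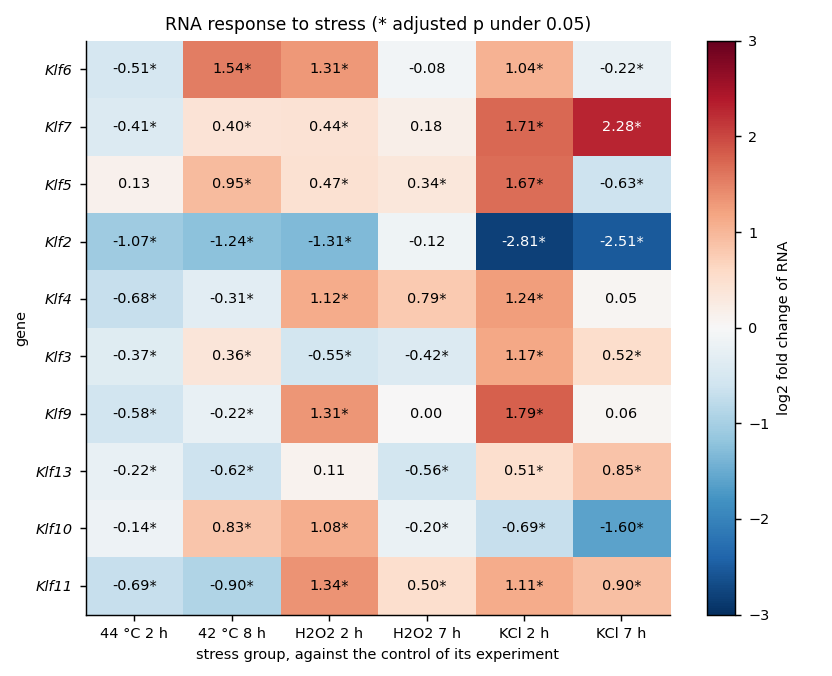
Log2 fold change of RNA (colour and printed value) of the 10 members (rows) in the 6 stress groups (columns), each against the control of its experiment; an asterisk marks an adjusted p under 0.05. Klf2 is negative in all 6 columns, from -0.12 to -2.81, while 8 members are positive at 2 h of KCl.

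Klf6 (chr13:5861489-5870393, mm10), a widely expressed factor with roles in growth arrest and in the response to injury, was the member with the largest rise in heat and the only member past 2-fold in that direction there. Its RNA was at 175 and 164 CPM (counts per 1000000 after TMM normalization) in the 2 heat controls, at 117 and 121 after 2 h at 44 °C and at 496 and 493 after 8 h at 42 °C. No library of the 42 °C group came near the control range, and both 44 °C libraries lay below it. The log2 fold change was 1.54 ± 0.04 (SE) at 42 °C (edgeR adjusted p = 1.88e-12) and -0.51 ± 0.04 at 44 °C (1.28e-07). In the other experiment, Klf6 RNA went from 163 and 166.5 CPM in the control to 400 and 418 after 2 h of H2O2 and to 323 and 356 after 2 h of KCl. These early rises of 1.31 ± 0.07 and 1.04 ± 0.07 on the log2 scale were gone at 7 h, when H2O2 libraries were at 145 and 166 CPM and KCl libraries at 137 and 147. The small fall at 7 h of KCl (-0.22 ± 0.07, edgeR adjusted p = 0.0176) was no longer called without replicate 1 of that group (-0.17, adjusted p = 0.139) or without control replicate 2 (-0.21, 0.0743).

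Klf7 (chr1:64029448-64122345), a close relative of Klf6 best known from neurons and fat cells, had the largest rise of any member and was the only member that went on rising between 2 h and 7 h of KCl by more than 0.5 on the log2 scale. Its libraries stood at 21.7 and 22.4 CPM in the control, at 70.2 and 74.4 after 2 h of KCl and at 102 and 113 after 7 h. The 3 groups were well apart, with log2 fold changes over control of 1.71 ± 0.08 and 2.28 ± 0.08 (SE; edgeR adjusted p = 1.22e-09 and 6.01e-11). H2O2 moved it far less: 27.1 and 32.7 CPM at 2 h gave 0.44 ± 0.09, and 25.1 and 24.7 CPM at 7 h gave 0.18 ± 0.09, which was not called (adjusted p = 0.0913). In heat, 36.4 and 33.3 CPM in the control became 27.1 and 25.6 at 44 °C and 44.9 and 47.6 at 42 °C. Both heat calls, -0.41 ± 0.06 and 0.40 ± 0.06, were lost on the log2(TPM + 1) scale with limma, at -0.19 (adjusted p = 0.0515) and 0.11 (0.263).

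Klf5 (chr14:99298691-99313412), a promoter of proliferation in epithelium and smooth muscle, rose early in KCl and then fell below its starting level. Control libraries held 25.9 and 33.0 CPM, those at 2 h of KCl 94.9 and 91.1, and those at 7 h 18.4 and 19.5. The early group was far above the control and the late group below both control libraries, at 1.67 ± 0.09 and -0.63 ± 0.10 (SE; edgeR adjusted p = 3.46e-09 and 6.23e-05). H2O2 raised it by 0.47 ± 0.09 at 2 h. The 0.34 ± 0.09 at 7 h of H2O2 was not called without control replicate 1, the lower of the pair (0.17, adjusted p = 0.0941), or without replicate 1 of the treated group (0.26, 0.0783). Klf5 was the member that did not change by the test at 44 °C (0.13 ± 0.08, adjusted p = 0.175), and it rose at 42 °C from 19.4 and 21.8 CPM to 37.4 and 42.4.

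Klf2 (chr8:72319062-72321654), a factor of endothelial and lymphocyte quiescence that is known to be induced by shear stress through the kinase ERK5 and MEF2, fell in 5 of the 6 stress groups. It had 14.4 and 14.8 CPM in the control of H2O2 and KCl, 2.39 and 1.79 after 2 h of KCl and 2.39 and 2.74 after 7 h. The KCl libraries rest on 45 to 67 counts each and did not overlap with the control, whose libraries had 564 and 697. The fall was by 2.81 and 2.51 on the log2 scale (SE 0.13 at both times; edgeR adjusted p = 7.16e-10 and 9.29e-10). After H2O2 the level was 6.06 and 5.68 CPM at 2 h and 13.2 and 13.7 at 7 h, so the early fall of -1.31 ± 0.10 was followed by -0.12 ± 0.10, which was not called (adjusted p = 0.289). In heat it fell from 14.0 and 15.0 CPM to 7.10 and 6.66 at 44 °C (-1.07 ± 0.09) and to 5.81 and 6.49 at 42 °C (-1.24 ± 0.09).

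Klf4 (chr4:55527137-55532475), a factor of epithelial differentiation that is also used to reprogramme fibroblasts into stem cells, rose with H2O2 at both times. Its level was 35.4 and 39.8 CPM in the control, 82.3 and 81.3 after H2O2 for 2 h and 65.5 and 63.9 after 7 h. All 4 H2O2 libraries were above the control, by 1.12 ± 0.07 and 0.79 ± 0.07 (SE; edgeR adjusted p = 1.4e-08 and 2.02e-07). KCl gave 84.4 and 93.4 CPM at 2 h (1.24 ± 0.07) but 38.2 and 39.5 at 7 h, inside the control range (0.05 ± 0.07, not called). At 44 °C it fell by 0.68 (SE 0.09), from 43.5 and 40.0 CPM to 24.9 and 27.2. The call at 42 °C (-0.31 ± 0.09) was lost without replicate 1 of that group (-0.13, adjusted p = 0.196) and without heat control replicate 1 (-0.24, 0.0663). The 42 °C libraries stood at 29.7 and 38.0 CPM, further apart than those of the other heat groups.

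**Figure D3:**
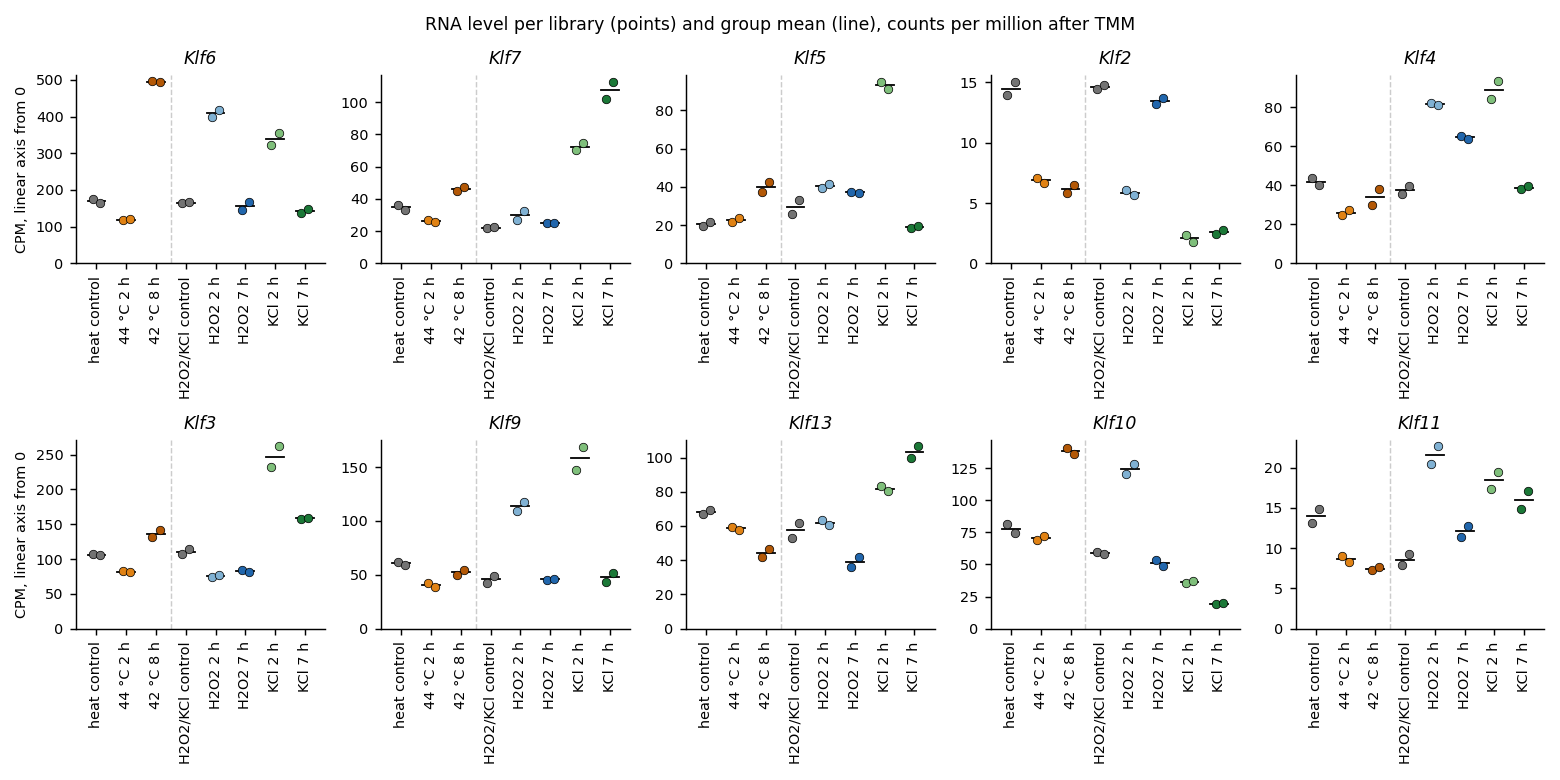
RNA level (y axis, CPM, linear from 0) of the 10 members in each of the 16 libraries (points) with the group mean (line), heat experiment left of the dashed line. Klf7 is highest at 7 h of KCl, at 102 and 113 CPM, and Klf6 at 42 °C, at 496 and 493.

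Klf3 (chr5:64803521-64832901), the CtBP-binding repressor of the set, separated KCl from H2O2. From 107 and 114 CPM in the control it went to 233 and 262 after 2 h of KCl and 158 and 159 after 7 h, whereas it went to 74.2 and 76.5 after 2 h of H2O2 and 84.0 and 81.0 after 7 h. KCl libraries were all above and H2O2 libraries all below the control. Log2 fold changes were 1.17 ± 0.07 and 0.52 ± 0.07 (SE) for KCl and -0.55 ± 0.07 and -0.42 ± 0.07 for H2O2 (edgeR adjusted p from 4.75e-09 to 5.98e-05). In heat it fell at 44 °C (-0.37 ± 0.05) and rose at 42 °C (0.36 ± 0.04), but the rise was not called on the log2(TPM + 1) scale (0.10, adjusted p = 0.143). With TPM values, all genes at 42 °C had a median of -0.16, with 1945 genes called higher and 6287 lower, against 4041 and 4072 on counts, so values at 42 °C depend on the scaling.

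Klf9 (chr19:23141226-23168129), a SIN3-binding repressor known to be induced by glucocorticoids and thyroid hormone, rose at 2 h of both agents and was back at 7 h. The control had 42.5 and 49.0 CPM, H2O2 at 2 h had 110 and 118, and KCl at 2 h had 147 and 169. The early groups were clear of the control, at 1.31 ± 0.09 and 1.79 ± 0.09 (SE; edgeR adjusted p = 3.36e-08 and 1.56e-09). At 7 h the libraries were at 45.6 and 45.9 CPM for H2O2 and 43.7 and 51.5 for KCl, overlapping the control, and neither was called (0.00 ± 0.09 and 0.06 ± 0.09). Heat lowered it, by -0.58 ± 0.06 at 44 °C, while the call at 42 °C (-0.22 ± 0.06) was lost without replicate 1 of that group (-0.15, adjusted p = 0.1) and without heat control replicate 1 (-0.17, 0.0651).

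Klf13 (chr7:63886351-63938915), another SIN3-binding factor, known for its role in chemokine expression in lymphocytes, moved in opposite directions with the agents at 7 h. It was at 53.1 and 62.0 CPM in the control, 36.2 and 41.9 after 7 h of H2O2 and 100 and 107 after 7 h of KCl. The 7 h groups lay on either side of the control, at -0.56 ± 0.08 and 0.85 ± 0.08 (SE; edgeR adjusted p = 3.58e-05 and 4.99e-07). At 2 h the change was 0.11 ± 0.08 with H2O2 (not called, edgeR adjusted p = 0.284) and 0.51 ± 0.08 with KCl, which was called (0.000128). It fell in heat, to 59.4 and 57.6 CPM at 44 °C and 41.9 and 46.8 at 42 °C from 66.9 and 69.5. The smaller of the heat changes (-0.22 ± 0.05 at 44 °C) was not called on the log2(TPM + 1) scale (-0.15, adjusted p = 0.0943).

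Klf10 (chr15:38291464-38300711), first described as a gene induced early by TGF-beta, was the only member that rose in H2O2 and fell in KCl at 2 h. Its libraries held 59.5 and 58.0 CPM in the control, 121 and 129 after 2 h of H2O2 and 53.6 and 48.5 after 7 h. In KCl they held 35.8 and 36.8 CPM at 2 h and 18.9 and 19.9 at 7 h. The H2O2 group at 2 h was above every other group of that experiment and the KCl group at 7 h below every other, with log2 fold changes of 1.08 ± 0.06 and -1.60 ± 0.07 (SE; edgeR adjusted p = 7.26e-09 and 4.22e-10). KCl at 2 h gave -0.69 ± 0.07. The call for H2O2 at 7 h (-0.20 ± 0.07, adjusted p = 0.014) was lost without replicate 2 of that group (-0.13, 0.165) or control replicate 1 (-0.18, 0.0722). At 42 °C Klf10 rose to 141 and 136 CPM from 81.2 and 74.2 (0.83 ± 0.05), and its fall at 44 °C (-0.14 ± 0.05, adjusted p = 0.0219) was not called with DESeq2 (-0.13, 0.0556), on the log2(TPM + 1) scale (-0.07, 0.237), without replicate 1 of that group (-0.12, 0.099) or without heat control replicate 1 (-0.08, 0.274).

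Klf11 (chr12:24651371-24662782), the closest relative of Klf10 and like it a SIN3-binding repressor, rose in all 4 H2O2 and KCl groups and fell in both heat groups. It was the scarcest member in the control, at 7.86 and 9.30 CPM in the control, 20.5 and 22.7 after 2 h of H2O2, 11.4 and 12.8 after 7 h, 17.4 and 19.5 after 2 h of KCl and 14.9 and 17.2 after 7 h. Each of these 8 libraries was above both controls. The log2 fold changes were 1.34 ± 0.11, 0.50 ± 0.12, 1.11 ± 0.11 and 0.90 ± 0.11 (SE) in that order, with edgeR adjusted p from 1.85e-07 to 0.00146. Heat took it from 13.1 and 14.9 CPM to 8.99 and 8.26 at 44 °C (-0.69 ± 0.09) and to 7.24 and 7.69 at 42 °C (-0.90 ± 0.09).

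The change between the times of an agent was tested directly. From 2 h to 7 h of H2O2, 7 members fell and 1 rose (36.1% of all genes called lower, 37.3% higher). The falls were largest for Klf6 (-1.39 ± 0.07), Klf9 (-1.31 ± 0.09) and Klf10 (-1.29 ± 0.07), and the member that rose was Klf2 (1.20 ± 0.11). The fall of Klf7 (-0.26 ± 0.09, edgeR adjusted p = 0.0146) ended without replicate 2 of H2O2 at 2 h (-0.13, 0.244) or at 7 h (-0.25, 0.0654). From 2 h to 7 h of KCl, 6 fell and 2 rose (33.7% lower, 35.1% higher). Klf5 fell by 2.30 on the log2 scale (SE 0.10), Klf9 by 1.74 (SE 0.09), Klf6 by 1.26 (SE 0.07) and Klf4 by 1.20 (SE 0.07), and the members that rose were Klf7 (0.57 ± 0.08) and Klf13 (0.34 ± 0.08).

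H2O2 and KCl were also set against each other at equal times, which leaves the shared control out of the difference. At 2 h, 3 members were higher with H2O2 and 5 higher with KCl (27% and 24.2% of all genes). Klf10 (1.78 ± 0.07) and Klf2 (1.49 ± 0.15) led on the side of H2O2, and Klf3 (-1.72 ± 0.07), Klf7 (-1.27 ± 0.08) and Klf5 (-1.20 ± 0.09) on the side of KCl. Klf6 was higher with H2O2 by 0.27 ± 0.07 (edgeR adjusted p = 0.00705), a call lost without replicate 2 of H2O2 (0.24, 0.0566) or replicate 1 of KCl (0.20, 0.0553). Klf4 and Klf11 were not called (-0.12 ± 0.07 and 0.23 ± 0.11). At 7 h, 4 were higher with H2O2 and 4 with KCl (41% and 37.4% of all genes), led by Klf2 (2.40 ± 0.13) and Klf10 (1.40 ± 0.07) for H2O2 and by Klf7 (-2.11 ± 0.09) and Klf13 (-1.41 ± 0.09) for KCl. The call of Klf11 (-0.40 ± 0.11) was lost without replicate 2 of KCl (-0.30, adjusted p = 0.0574).

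The heat groups differ in both temperature and time, which cannot be told apart. Compared directly, 7 members were higher at 42 °C for 8 h than at 44 °C for 2 h and 1 was lower (37.9% and 37.2% of all genes). Klf6 differed most (2.05 ± 0.04), then Klf10 (0.97 ± 0.05), Klf5 (0.82 ± 0.08), Klf7 (0.81 ± 0.06) and Klf3 (0.73 ± 0.05), and Klf13 was the lower member (-0.40 ± 0.06). The calls of Klf4 (0.37 ± 0.10) and Klf9 (0.36 ± 0.06) ended on the log2(TPM + 1) scale (0.11 for each, adjusted p = 0.345 and 0.175), where all genes had a median of -0.20, with 2764 called higher and 6798 lower in place of 4829 and 4743. The call of Klf4 also ended without replicate 2 at 42 °C (0.19, 0.0657). Klf2 and Klf11 were not called on counts (-0.17 ± 0.10 and -0.21 ± 0.10).

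Footprint changes were called for some of the members whose RNA changed and not for others. At 2 h far fewer genes were called in footprints than in RNA, so a missing footprint call does not show a difference from RNA. That difference was tested directly, as given further below. At 2 h of KCl, 4 of the 10 members rose in footprints and none fell, where 6.86% of all genes were called in either direction. Klf5 footprints went from 138 and 167 CPM in the control to 400 and 370 (1.33 ± 0.20, edgeR adjusted p = 0.0019). Klf9 went from 14.9 and 19.5 CPM to 40.9 and 36.5, and Klf3 from 31.8 and 28.8 to 60.4 and 59.8. Klf6 went from 280 and 241 CPM to 443 and 402 (0.70 ± 0.18, adjusted p = 0.0389). In these 4 genes both KCl libraries were above both controls, as they were in RNA. The call of Klf5 held in each fit that left out a library. That of Klf3 (0.98 ± 0.20) was lost whichever of the 4 libraries was left out (0.92 to 1.11, adjusted p 0.0547 to 0.0866), that of Klf9 (1.17 ± 0.24) without control replicate 1 or KCl replicate 1 (1.03 and 1.09, 0.0988 and 0.0821), and that of Klf6 in each of these 4 fits (0.59 to 0.86, 0.0884 to 0.234), on the log2(TPM + 1) scale (0.65, 0.0743) and in a fit of the compared groups alone (0.70, 0.0656).

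At 2 h of H2O2 only Klf10 and Klf11 were called in footprints, both higher, among 1.91% of all genes called in either direction. Klf10 went from 63.6 and 55.8 CPM to 151 and 142 (1.29 ± 0.19, edgeR adjusted p = 0.00586), and Klf11 from 4.89 and 2.75 to 19.3 and 16.1 (2.16 ± 0.37, 0.0111). The groups of both genes were apart, although Klf11 rests on 10 and 20 footprints in the control. Both calls were lost without control replicate 2 (1.20 and 1.82, adjusted p = 0.0664 and 0.0968), in a fit of the compared groups alone (1.30 and 2.17, 0.0583 and 0.0898) and on the log2(TPM + 1) scale (1.19 and 1.81, 0.0501 for each). Klf6 (0.67 ± 0.18, adjusted p = 0.0823) and Klf9 (0.90 ± 0.24, 0.0778), which had risen in RNA, were not called in footprints. Nor were Klf4 (0.54 ± 0.37), Klf5 (-0.24 ± 0.20) and Klf7 (0.72 ± 0.43), which had also risen in RNA.

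After 7 h of H2O2, 1 member rose and 2 fell in footprints (27.7% of all genes called). Klf6 footprints were 131 and 152 CPM against 280 and 241 in the control (-0.88 ± 0.19, edgeR adjusted p = 0.00339), while its RNA was not called. Klf11 was at 12.8 and 9.22 CPM (1.51 ± 0.38), a call lost without replicate 1 of that group (1.20, adjusted p = 0.1) or control replicate 2 (1.16, 0.0905). Klf13 was at 14.5 and 10.9 CPM against 20.8 and 32.7 (-1.06 ± 0.32, 0.0251), a call lost without either replicate of that group (-1.33 and -0.92, 0.053 and 0.154), without control replicate 2 (-0.71, 0.214) and on the log2(TPM + 1) scale (-0.89, 0.0714).

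After 7 h of KCl, 2 members rose and 3 fell in footprints (20.4% of all genes called). Klf3 went to 71.4 and 56.2 CPM (1.07 ± 0.20, edgeR adjusted p = 0.00355) and Klf11 to 15.8 and 12.2 (1.84 ± 0.38, 0.00518). Klf10 went to 20.7 and 18.4 CPM from 63.6 and 55.8 (-1.61 ± 0.21, 0.000349), close to its RNA change of -1.60. Klf6 went to 145 and 140 CPM (-0.87 ± 0.19, 0.00649), a call that was lost without KCl replicate 2 (-0.84, 0.0533). Klf2 had 2 footprints in each KCl library against 12 and 39 in the control libraries. That is 4 against 51 in all, a ratio of 0.098 with a 95% exact binomial interval of 0.0257 to 0.267, which covers counting error only. The edgeR call (-3.31 ± 0.89, adjusted p = 0.0196) was lost without either KCl library (-3.49 and -3.10, 0.0951 and 0.143) or control replicate 2 (-2.12, 0.183).

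**Figure D4:**
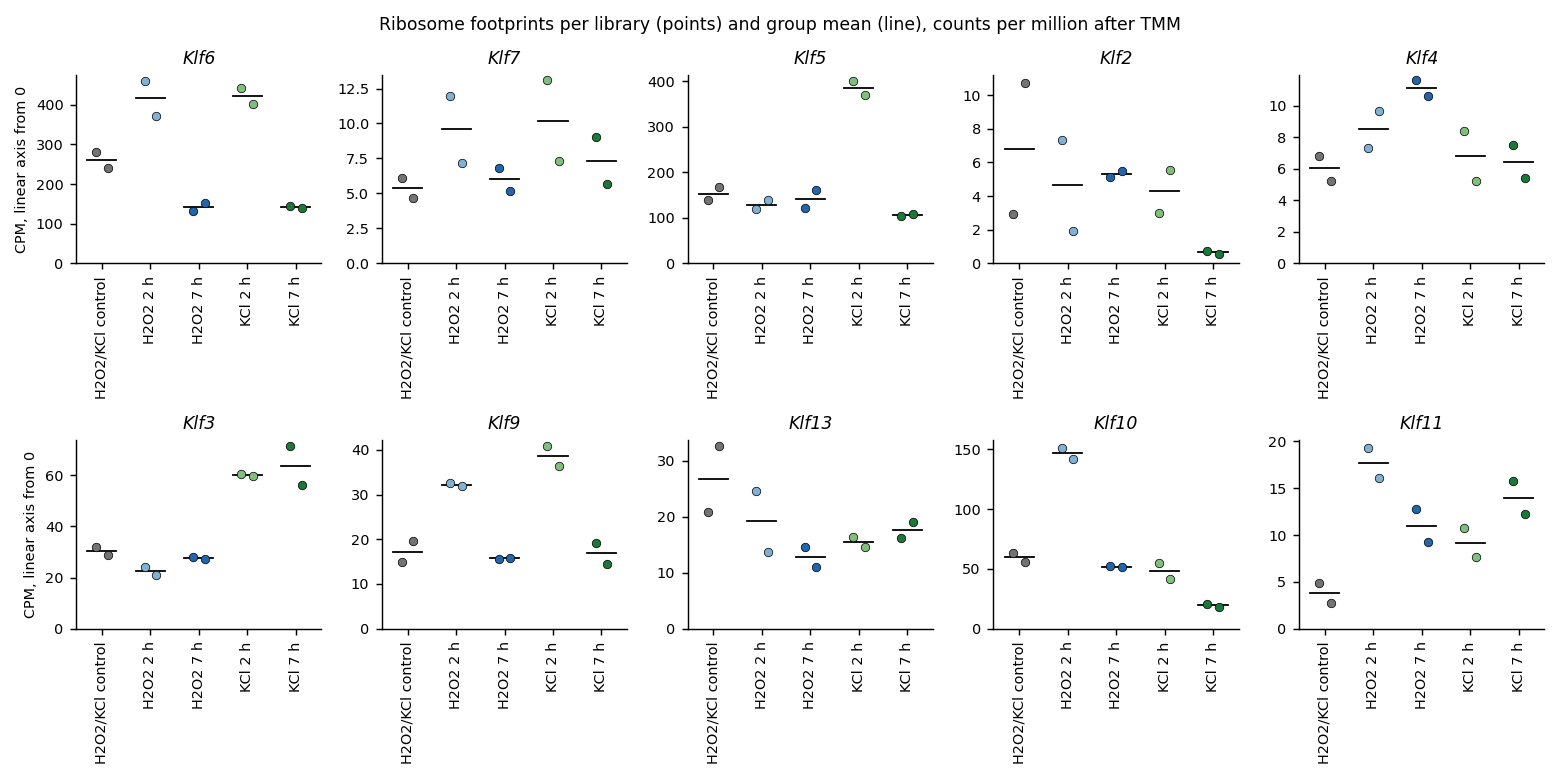
Footprint level (y axis, CPM, linear from 0) of the 10 members in each of the 10 footprint libraries (points) with the group mean (line). Klf5 stands at 400 and 370 CPM at 2 h of KCl, above all other groups, and the 2 libraries of a group spread most for the members with few footprints, such as Klf2 at 2.94 and 10.7 CPM in the control.

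Between the times, footprints of Klf6 (-1.55 ± 0.19), Klf9 (-1.03 ± 0.25) and Klf10 (-1.49 ± 0.20) fell from 2 h to 7 h of H2O2, 3 members of 10 against 29.8% of all genes called. From 2 h to 7 h of KCl, Klf5 (-1.85 ± 0.20), Klf6 (-1.57 ± 0.19), Klf10 (-1.30 ± 0.22) and Klf9 (-1.21 ± 0.24) fell, 4 of 10 against 20.6%. The call of Klf9 in KCl ended without replicate 2 at 7 h (-1.01, edgeR adjusted p = 0.0517). Between the agents at 2 h, Klf10 was higher with H2O2 (1.61 ± 0.20) and Klf3 (-1.44 ± 0.22) and Klf5 (-1.57 ± 0.20) higher with KCl, 3 of 10 against 5.12%. At 7 h Klf10 (1.41 ± 0.21) and Klf2 (2.96 ± 0.92) were higher with H2O2 and Klf3 (-1.20 ± 0.21) with KCl, 3 of 10 against 41.2%, and the call of Klf2 was lost whichever of the 4 libraries was left out (2.75 to 3.13, adjusted p 0.0623 to 0.133).

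Whether footprints and RNA changed by different amounts was tested as the interaction of library kind and group, given here as the log2 change in footprints per RNA. At 7 h of KCl, 2 of 10 members were called, both lower (5.57% of all genes in either direction, 177 higher and 407 lower). Klf7, whose RNA rose to 102 and 113 CPM, had footprints of 9.02 and 5.67 CPM against 6.11 and 4.67 in the control. Its footprint groups overlapped, and footprints per RNA changed by -1.86 ± 0.39 (edgeR adjusted p = 0.0105). Klf13, whose RNA rose to 100 and 107 CPM, had 16.2 and 19.0 CPM of footprints against 20.8 and 32.7, and footprints per RNA of -1.40 ± 0.29 (0.00917). Klf13 was lower by this measure at 2 h of KCl too (-1.29 ± 0.30, 0.00809). With limma voom and a weight for each kind of library these 3 calls were lost, at -1.87, -1.36 and -1.25 (adjusted p = 0.0727, 0.0553 and 0.0529). Those of Klf13 were also lost without footprint control replicate 2 (-1.04 at 7 h and -0.93 at 2 h, 0.0602 and 0.0543), and that of Klf7 without footprint control replicate 1 (-1.64, 0.09) or KCl footprint replicate 2 (-1.52, 0.0732).

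At 2 h of KCl 3 members were called in footprints per RNA (12.8% of all genes), namely Klf13 above, Klf4 lower and Klf2 higher. Of all genes, 375 were called higher and 962 lower there. Klf4 had 8.39 and 5.21 CPM of footprints against 6.85 and 5.22 in the control while its RNA more than doubled, a change of -1.08 ± 0.31 (edgeR adjusted p = 0.0279). Klf2 had 9 and 16 footprints against 12 and 39, while its RNA fell to 2.39 and 1.79 CPM, a change of 2.16 ± 0.64 (0.0344). Both calls were lost in 6 of 13 alternatives. In those 6, Klf4 ran from -1.11 to -0.79 (adjusted p up to 0.202) and Klf2 from 1.47 to 2.18 (up to 0.31), while over all 13 they ran from -1.47 to -0.79 and from 1.47 to 3.34. In H2O2, Klf6 was lower at 2 h (-0.68 ± 0.18, 0.0243) and 7 h (-0.79 ± 0.19, 0.0128), and Klf5 at 2 h (-0.73 ± 0.21, 0.0307). That is 2 of 10 members at 2 h and 1 at 7 h, against 11.4% and 9.27% of all genes. Of all genes, 417 were called higher and 782 lower at 2 h, and 492 and 479 at 7 h. The Klf5 call was lost in 8 of 13 alternatives (-0.78 to -0.57 in these, adjusted p up to 0.141), and those of Klf6 in 7 (-0.71 to -0.54, up to 0.0901) and 4 (-0.79 to -0.66, up to 0.0797). None of the 8 calls in footprints per RNA held in all alternatives.

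**Figure D5:**
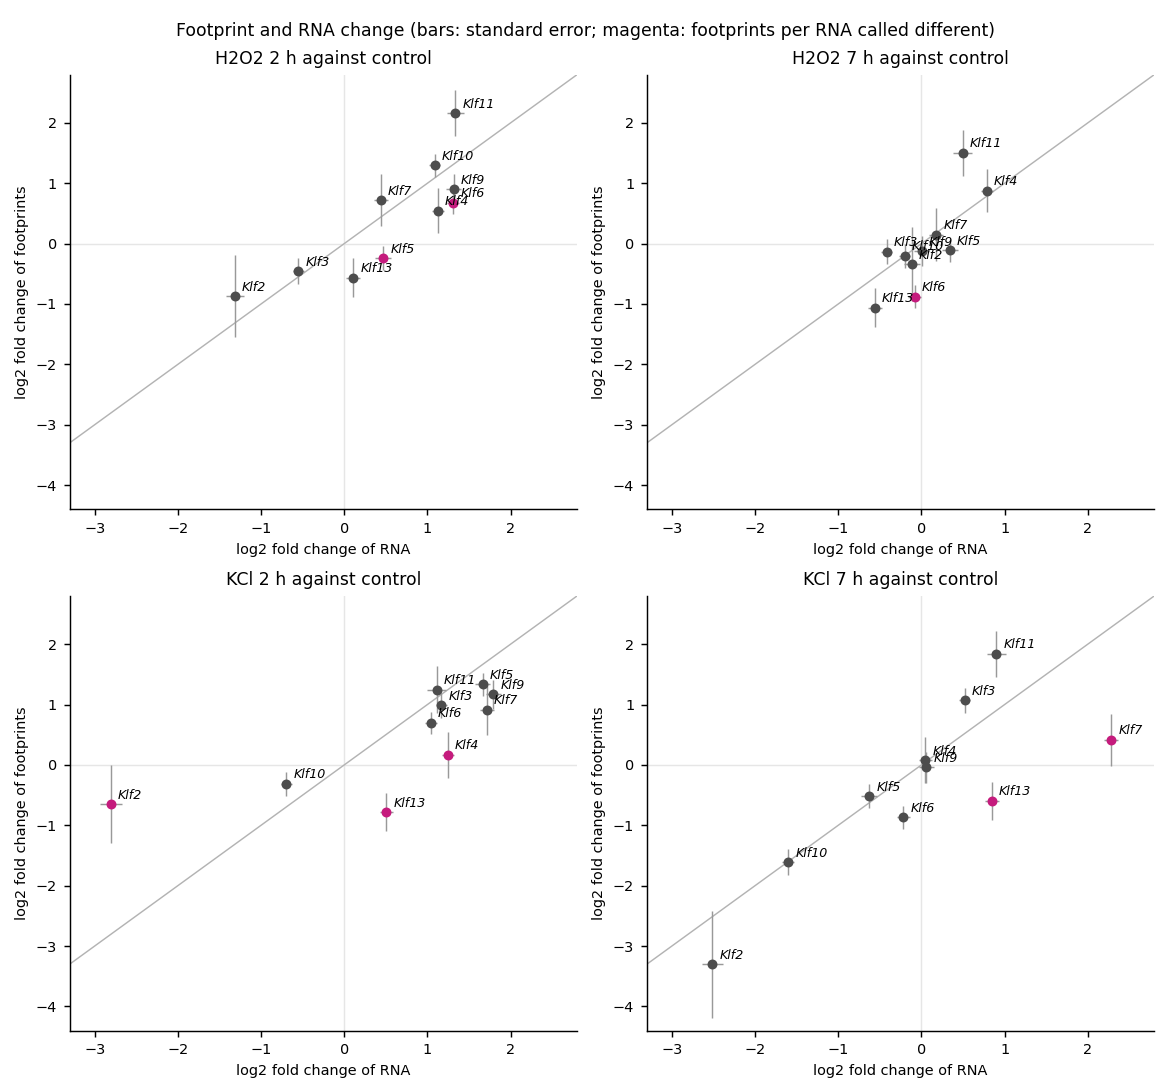
Log2 fold change of footprints (y axis) against that of RNA (x axis) of the 10 members in 4 stress groups against the shared control; bars are standard errors, the line marks equal change and magenta marks a called change in footprints per RNA. Klf7 and Klf13 lie far below the line at 7 h of KCl, with RNA changes of 2.28 and 0.85, and Klf10 lies on it, at -1.60 and -1.61.

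Over the 16 RNA libraries, as log2 CPM less the control mean of each experiment, the members whose patterns were most alike were Klf4 and Klf9 (Pearson r = 0.886) and Klf4 and Klf11 (0.854), and the most opposed were Klf2 and Klf7 (-0.83). The 16 values fall into groups of replicates and share their controls, so these are descriptions. Before the log, 0.5 was added to CPM. With this offset Klf7 had the widest range over groups, 2.65 on the log2 scale, wider than 92.3% of the genes tested in both RNA fits. Compared were 9416 genes tested in both RNA fits, with a mean log2 CPM of at least 3 over the libraries. Those most like Klf7 were Tab2 (0.983), Elf1 (0.981) and Cdc42bpa (0.978). Those most like Klf10 (range 2.65) were Slc9a8 (0.967), Dlst (0.945) and Azin1 (0.945), and those most like Klf2 (2.56) were Zbed3 (0.953), Gid8 (0.938) and Dnajc30 (0.937). The offset narrows the range of Klf2, whose edgeR log2 fold change at 2 h of KCl was -2.81. The order of these ranges therefore depends on the offset. Klf13 varied least, with a range of 1.46, wider than 65.9% of genes.

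Of the 7 other KLF genes listed, 5 were tested in heat and 4 in the other experiment. Klf15, a metabolic regulator induced by fasting and glucocorticoids, was near the detection limit in the control (0.372 and 0.315 CPM) and rose at 7 h of both agents, to 2.31 and 1.90 CPM with H2O2 (log2 fold change 2.60 ± 0.29, edgeR adjusted p = 2.15e-06) and to 1.29 and 1.41 with KCl (1.95 ± 0.33, 0.000108). Klf16, of the SIN3-binding group, fell at 7 h of KCl from 37.7 and 41.0 CPM to 16.5 and 17.3 (-1.22 ± 0.08). The CtBP-binding Klf12 fell at 7 h of H2O2 from 17.0 and 16.6 CPM to 6.85 and 6.92 (-1.28 ± 0.13) and rose at 7 h of KCl to 31.1 and 29.8 (0.86 ± 0.11). Klf3 of the same group went in these directions at 7 h too, but Klf8, its other listed member, fell at 7 h of both agents (-0.61 ± 0.21 with H2O2 and -0.51 ± 0.21 with KCl, edgeR adjusted p = 0.0178 and 0.0438).

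The SP factors, which bind the same GC boxes, were listed with 9 genes, of which 7 were tested in the H2O2 and KCl experiment. After KCl for 7 h 4 were higher and none lower (37.2% and 31.6% of all genes), led by Sp4 (1.84 ± 0.10), which went from 7.36 and 8.10 CPM to 28.1 and 27.0. At 2 h of KCl 2 rose and 1 fell (27.2% and 27%). With H2O2 for 7 h 4 rose and 1 fell (39.4% and 31.1%), and the largest rise was that of Sp6, from 5 and 11 counts in the control (0.103 and 0.288 CPM) to 696 and 557 (21.1 and 22.04 CPM; 6.83 ± 0.23, edgeR adjusted p = 5.53e-12). At 2 h of H2O2 4 rose and none fell (27.3% and 26.5%). In heat, 1 rose and 2 fell of the 6 tested at either temperature (35.4% and 35.7% of all genes at 44 °C, 31.7% and 31.9% at 42 °C).

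The partners and regulators of KLFs changed in both directions. Of 11 corepressors and coactivators, 1 rose and 5 fell at 2 h of H2O2 (27.3% and 26.5% of all genes) and 3 rose and 7 fell at 7 h (39.4% and 31.1%). In KCl, 4 rose and 2 fell at 2 h (27.2% and 27%), and 6 rose and 1 fell at 7 h (37.2% and 31.6%). The acetyltransferase Ep300 rose most at 7 h of KCl (1.17 ± 0.10), and Kat2b fell most at 7 h of H2O2 (-1.07 ± 0.07). Of 7 ubiquitin ligases known to act on KLF proteins, 4 rose and 2 fell at 7 h of H2O2 (39.4% and 31.1%). The largest of these rises was that of Wwp1, a ligase for Klf5 and Klf2, from 45.2 and 47.9 CPM to 132 and 139 (1.54 ± 0.08). In heat, 2 ligases rose and 5 fell at 44 °C (35.4% and 35.7%), and 5 rose and none fell at 42 °C (31.7% and 31.9%).

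The ERK5, MEF2 and SRF routes upstream of KLFs were listed with 13 symbols, in which Mkl1 and Mkl2 stand also as Mrtfa and Mrtfb. Of these symbols, 11 were tested in RNA, Mkl1 and Mkl2 among them. By 7 h of KCl, 7 rose and 2 fell (37.2% and 31.6% of all genes), with Elk4 highest (1.72 ± 0.16) and Map2k5 and Mef2d lowest (-0.67 for each). By 7 h of H2O2, 2 rose and 7 fell (39.4% and 31.1%), with Mef2c lowest (-1.24 ± 0.21). Among 6 genes of TGF-beta and glucocorticoid signalling, known inducers of Klf10 and Klf9, 4 rose and 1 fell at 2 h of KCl (27.2% and 27%) and 3 rose and none fell at 2 h of H2O2 (27.3% and 26.5%). The receptor genes Tgfbr1 and Nr3c1 had the largest rises, whose order is not resolved by their errors, at 0.69 ± 0.09 each with KCl and at 0.43 ± 0.09 and 0.40 ± 0.09 with H2O2. After 7 h of H2O2, 2 rose and 2 fell (39.4% and 31.1%), and the glucocorticoid receptor gene Nr3c1 rose most (0.87 ± 0.09). After 7 h of KCl, 2 rose and 1 fell (37.2% and 31.6%), the fall being that of Tgfbr2 (-0.71 ± 0.06).

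The authors also deposited calls, per RNA library, of transcription past the end of a gene (downstream-of-gene transcription, DoG) and of its reading into the next gene, for 6399 pairs of neighbours. A member was in 9 pairs, upstream in 6 and downstream in 3, and 0 of these pairs had a read-in call in any of the 16 libraries, as against 5.45% of all pairs with such a call in some library. The Klf9 to Ptar1 pair had a DoG call in 16 of 16 libraries and Klf5 to Uchl3 in 15, while Fan1 to Klf13, with the member downstream, had one in 14. Klf11 to Rrm2 was called in 4 libraries, of which 2 were KCl at 2 h, and Klf6 to Pitrm1 in 3, of which 2 were KCl at 2 h and none a control. The other 4 pairs had calls in 1 to 3 libraries. Over all pairs, 19.4% to 35.7% had a DoG call in a library, and no test was made over these calls.

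Some members share their locus with other annotated genes. In the RefSeq table of the same assembly, the spans of Klf3, Klf7, Klf10 and Klf13 overlap with a long noncoding RNA, those of Klf3 and Klf13 also with a further gene annotated as protein-coding, and those of Klf7 and Klf9 with a microRNA. No source used here says whether reads were assigned by strand, so reads from such a partner cannot be told apart from those of the member.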

How the data were processed

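The labels describe NIH3T3 cells in 13 groups of 2 libraries, 26 in all, with heat at 42 °C or 44 °C and exposures of 2 h, 7 h or 8 h. Per gene, the authors deposited expected counts, here all whole numbers, and TPM values of the same libraries. The submitters' processing notes name STAR, RSEM, Bowtie and the build mm10, with no version or role. The tables hold another 12 columns that no sample label matches, and these were left out. Samples were grouped by the stress named in the labels, and totals per library are given with the results.

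Expected counts were tested with edgeR 4.0.16 in R 4.3.3 (TMM, filterByExpr, quasi-likelihood F test, Benjamini-Hochberg adjustment over all genes, threshold 0.05), in separate fits for heat RNA, for H2O2 and KCl RNA, and for footprints, and as an interaction of kind and group over the H2O2 and KCl libraries of both kinds. The standard error is the one implied by the F statistic. CPM values are counts per 1000000 after TMM. Alternatives used DESeq2 1.42.0, limma 3.58.1 on log2(TPM + 1), voom weights, RLE size factors, no filter, fewer groups, the replicate number as a covariate and single libraries left out. Scripts were tested on simulated counts first.

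The members and gene lists were chosen with earlier results of these data known. Named genes are the 10 members, the largest rise or fall of a list, and the 3 genes of highest correlation with each of the 3 members of widest range. Beyond these and the cell type markers, Klf8 was named, as were Klf12 at 7 h of KCl and Nr3c1 at 2 h of both agents. The promoters of Klf2 and Klf4 were added after values were seen. No table of protein sequences was used here. Counts fix the precision, and footprint counts of Klf2, Klf4, Klf7 and Klf11 were the lowest.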

Additional observations from a re-analysis of the deposited data

Results flagged for a closer look

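In 13 cases a member moved in opposite directions under a pair of stresses or times, and the difference itself passed edgeR's quasi-likelihood F test. The cases were picked for called changes of opposite sign against the same control. Their differences were therefore all but bound to pass. Such cases were not counted over all genes, so their number is not a result about the members. Values are log2 differences, each between groups of 2 libraries. From 2 h to 7 h of H2O2, Klf10 RNA differed by -1.286 (adjusted p = 4.15e-10). From 2 h to 7 h of KCl, Klf5 RNA differed by -2.295 (2.34e-10), Klf6 RNA by -1.259 (3.67e-09) and Klf6 footprints by -1.568 (0.000311). For H2O2 less KCl at 2 h, Klf3 RNA differed by -1.716 (1.97e-10) and Klf10 RNA by 1.78 (1.51e-10). For H2O2 less KCl at 7 h, the RNA of Klf3 differed by -0.941 (9.63e-09), that of Klf5 by 0.9713 (5.69e-07) and that of Klf13 by -1.408 (1.54e-09). For 42 °C less 44 °C, the RNA of Klf3 differed by 0.7345 (2.83e-09), that of Klf6 by 2.054 (1.32e-13), that of Klf7 by 0.8123 (3.64e-08) and that of Klf10 by 0.9748 (4.26e-10). Some of the single changes behind these differences lost their call in an alternative, as given with the results of each gene.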

How the results depend on the processing

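Of 92 RNA calls of members, 77 held in every alternative, as did 16 of 27 footprint calls and 0 of 8 calls in footprints per RNA, and no call changed direction in 1100, 795 and 520 alternative values. The calls that were lost are given with the results. Asking for a change of at least 2-fold left, in RNA, 1 called member at 44 °C, 2 at 42 °C, 0 after 7 h of H2O2, 3 after 7 h of KCl, 1 between the heat groups, 4 between the times of each agent, 5 between agents at 2 h and 4 at 7 h. It left 2 in footprints at 2 h of KCl and 0 in footprints per RNA at 2 h or 7 h of H2O2. The share of all genes at 2-fold was taken only for RNA against control. The other 2-fold counts have no such share and are not results about the members. Footprint calls at 2 h of H2O2 went from 2 to 0 on log2(TPM + 1) values and with only the groups compared. In footprints per RNA, limma voom called 1 at 2 h of either agent and 0 at 7 h of KCl, no filter called 1 at 2 h of H2O2, and a fit of the compared groups called 0 with H2O2 for 2 h and 1 with KCl for 2 h.

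Leaving out 1 library gave these numbers of called members. In RNA they were 8 to 9 at 44 °C, 8 to 10 at 42 °C, 7 to 9 between the heat groups, 9 at 2 h and 4 to 6 at 7 h of H2O2, 10 at 2 h and 7 to 8 at 7 h of KCl, 7 to 8 between the times of H2O2, 8 between those of KCl, 7 to 8 between agents at 2 h and 7 to 9 at 7 h. In footprints they were 0 to 2 and 1 to 3 at 2 h and 7 h of H2O2, then 1 to 2 and 3 to 5 at 2 h and 7 h of KCl, 3 and 3 to 4 between the times of H2O2 and KCl, and 3 and 2 between agents at 2 h and 7 h. In footprints per RNA they were 0 to 2 and 0 to 1 for H2O2 and 1 to 3 and 1 to 2 for KCl. Same-numbered replicates were not paired by the labels, so numbers were not treated as pairs in the main fits. Their deviations from the group means correlated over 0.1 in 1 of 3 pairs of groups in heat, 1 of 10 in the other RNA libraries and 6 of 10 in footprints. In footprints these correlations ran from -0.376 to 0.411, and whether same-numbered footprint libraries belong together was not tested. With the replicate number as a block, no call was lost, and footprints per RNA had 2 called members after H2O2 for 7 h and 5 after KCl for 7 h. Calls added by the block were Klf11 in 6 comparisons, with -0.20 and 0.23 in RNA (between times of KCl, and between agents at 2 h), 1.26 in footprints at 2 h of KCl and 0.88, 1.02 and 0.99 in footprints per RNA (H2O2 for 2 h and 7 h, KCl for 7 h), and Klf3 (0.57) and Klf6 (-0.62) in footprints per RNA at 7 h of KCl.

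On log2(TPM + 1) values the median of all genes shifted in footprints too, to 0.11 at 7 h of H2O2 (1853 genes higher and 640 lower, against 1810 and 1115 on counts), 0.19 between the times of H2O2 (2316 and 672 against 1967 and 1172) and 0.18 between agents at 7 h (2744 and 1273 against 2474 and 1872). At 2 h of KCl it called 2567 higher and 4540 lower in RNA, against 3609 and 3576, and between agents at 2 h 4264 and 1986 against 3582 and 3212. Footprints at 2 h of H2O2 had 120 higher and 81 lower, against 36 and 9 on TPM values and 25 and 2 in the fit of the compared groups, and those between agents at 2 h had 319 and 221, against 278 and 304 with DESeq2. Footprints per RNA at 7 h of H2O2 had 492 and 479, against 256 and 386 with voom. The cause of each was not tested. Footprint depth limits Klf2, Klf4, Klf7 and Klf11, and 2 libraries a group limit every comparison.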
